A study of Mus musculus with 6 samples.

Results

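Macrophages and other leukocytes are carried into every embryonic tissue by the blood and settle there as resident phagocytes. The 34 genes described here mark these cells, and they were chosen by name. All probe sets assigned by the platform annotation to exactly 1 of the 34 symbols were taken. They numbered 54 and covered 33 of the genes, and no probe set was used for Lyn, an Src-family kinase. In all, 18193 genes were tested.

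The study profiled EGFP-positive cells that were sorted out of dissected mouse intermediate mesoderm at E11.5, in 3 samples from Pax2 heterozygotes (EGFP/+) and 3 from Pax2 nulls (EGFP/EGFP). Every sample therefore carried at least 1 EGFP allele, nulls carried EGFP on both, and no wild-type sample was compared. The intermediate mesoderm forms kidneys and gonads, and the transcription factor Pax2 is needed for the kidney. Each sample was hybridized to 1 Affymetrix array, and all values are log2 levels per probe set. The labels do not say whether samples came from separate litters or from pooled embryos, so the spread behind each p-value is that of these samples alone and may be technical in part. Sex-linked genes, given below, set heterozygote 2 and null 1 apart from the other arrays, so neither was a repeat of another array's RNA. Heterozygotes 1 and 3 and nulls 2 and 3 had high levels of both Xist (8.84 to 10.97), made in female cells, and Y-linked Eif2s3y (7.90 to 8.32). Each of these samples therefore held cells of both sexes, and so of more than 1 embryo.

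Tissue macrophages of this stage arise from precursors made in the yolk sac. Their identity depends on the transcription factor PU.1, which is encoded by Spi1, and their survival on the receptor Csf1r, which binds the ligands Csf1 and Il34. They sense immune complexes through Fc receptors, which signal through the ITAM-bearing adaptor Fcer1g. A second such adaptor, Tyrobp, serves Trem2 and other receptors. Dying cells are cleared with the help of complement C1q and scavenger receptors such as Mrc1. In developing organs, the kidney among them, they remove debris and support growth.

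PU.1 binds a purine-rich element whose core is GAGGAA, so the promoters of the genes were searched for it. RefSeq windows (GRCm38.p6) from 250 bases before to 50 bases after a gene's start were given for 24 of the 34 genes, in 30 windows. GAGGAA, read on both strands as GAGGAA or TTCCTC, lay in at least 1 window of 19 of these 24 genes (79.2%), against 31.3% of the 27025 genes in the table. By window the shares were 70.0% of 30 and 28.3% of 32851. The longer form GAGGAAGT, which contains the core, lay in windows of 7 of the 24 genes (29.2%), against 3.69% of all. TGTGGT on both strands, the core bound by RUNX factors, was found in 7 of the 24 (29.2%) against 18.9% of all, and TATAAA on the gene's own strand in 1 (4.17%) against 9.77%. These are matches of letters, not measured binding sites.

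The 250 bases upstream of 6 genes are shown because these genes hold the core there and are among the 8 that passed below once arrays were paired. Of the other two, Lcp1 held no core in its 2 windows and Tyrobp had no window. They are written 5′ to 3′ on the gene's own strand, with GAGGAA or its complement TTCCTC in capitals, on RefSeq GRCm38.p6.
Mrc1, chr2:14229164-14229413, plus strand: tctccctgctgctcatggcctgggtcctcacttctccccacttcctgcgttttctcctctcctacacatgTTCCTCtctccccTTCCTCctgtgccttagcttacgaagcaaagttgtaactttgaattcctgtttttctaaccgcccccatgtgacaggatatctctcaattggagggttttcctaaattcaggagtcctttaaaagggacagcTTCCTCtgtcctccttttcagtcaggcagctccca
C1qb, chr4:136886201-136886450, minus strand: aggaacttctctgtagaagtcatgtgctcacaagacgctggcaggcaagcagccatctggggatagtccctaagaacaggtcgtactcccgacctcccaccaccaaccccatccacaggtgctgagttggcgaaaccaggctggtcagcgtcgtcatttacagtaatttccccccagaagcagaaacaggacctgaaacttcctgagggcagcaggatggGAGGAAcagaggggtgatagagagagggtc
C1qc, chr4:136892915-136893164, minus strand: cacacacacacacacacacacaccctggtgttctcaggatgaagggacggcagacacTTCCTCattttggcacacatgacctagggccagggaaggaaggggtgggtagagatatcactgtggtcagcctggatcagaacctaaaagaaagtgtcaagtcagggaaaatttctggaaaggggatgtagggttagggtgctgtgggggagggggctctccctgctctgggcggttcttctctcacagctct
Ctss, chr3:95526536-95526785, plus strand: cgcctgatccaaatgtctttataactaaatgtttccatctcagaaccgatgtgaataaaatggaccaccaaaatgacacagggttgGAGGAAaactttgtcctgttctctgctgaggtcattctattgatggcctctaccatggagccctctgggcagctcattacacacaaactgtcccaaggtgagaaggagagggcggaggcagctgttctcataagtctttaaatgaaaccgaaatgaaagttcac
Laptm5, chr4:130913066-130913315, plus strand: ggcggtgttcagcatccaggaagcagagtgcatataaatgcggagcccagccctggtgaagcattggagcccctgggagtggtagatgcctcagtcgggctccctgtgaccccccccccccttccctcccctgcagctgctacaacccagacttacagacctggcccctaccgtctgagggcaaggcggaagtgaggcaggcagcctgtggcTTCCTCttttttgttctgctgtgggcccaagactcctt
Cd53, chr3:106790150-106790399, minus strand: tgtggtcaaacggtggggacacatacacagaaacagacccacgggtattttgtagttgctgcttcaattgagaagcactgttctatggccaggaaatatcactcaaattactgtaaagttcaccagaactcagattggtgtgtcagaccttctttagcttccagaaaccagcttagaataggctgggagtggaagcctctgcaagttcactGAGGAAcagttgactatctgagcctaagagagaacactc

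Mrc1 held the core 3 times, at 180, 167 and 35 bases before its start. The upstream copy lay 30 bases before the start of C1qb, 38 before that of Laptm5, 39 before that of Cd53, 164 before that of Ctss and 193 before that of C1qc. Ctss and Cd53 each also held a copy in the 50 bases after the start, which were searched but are not shown. C1qb, C1qc and C1qa follow each other among the protein-coding genes of RefSeq, so these 3 genes share a neighbourhood as well as a function. Vav1 and Adgre1 are also neighbours. The genes otherwise lie on 17 chromosomes.

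Most macrophage and leukocyte genes had a higher mean level in null than in heterozygous cells, but the arrays of a genotype differed widely and no single gene passed the test. Of 33 measured genes, 31 had a positive change (null minus heterozygote), against 46.4% of all genes. The median change was 0.88 on the log2 scale, with a range from -0.22 to 2.39, where the median of all 18193 genes was -0.019. No gene passed (limma, Benjamini-Hochberg adjusted p under 0.05 over all genes), where 0.808% of all genes passed as higher in null and 0.583% as lower. At an unadjusted p under 0.05, 14 of the 33 were higher and 0 lower, and 5.08% of all genes were higher. The null arrays all lay above the heterozygote arrays for 9 of the 33, as they did for 6.49% of all genes. In 14 genes the change exceeded 1 log2 unit, which 1.92% of all genes did. In bulk samples, more cells of a type and more RNA per cell cannot be told apart. The cells had also passed a gate for EGFP, which is meant to leave out cells without it, macrophages among them if they lack EGFP, and the purity of the sort is not stated in the labels.

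**Figure D1:**
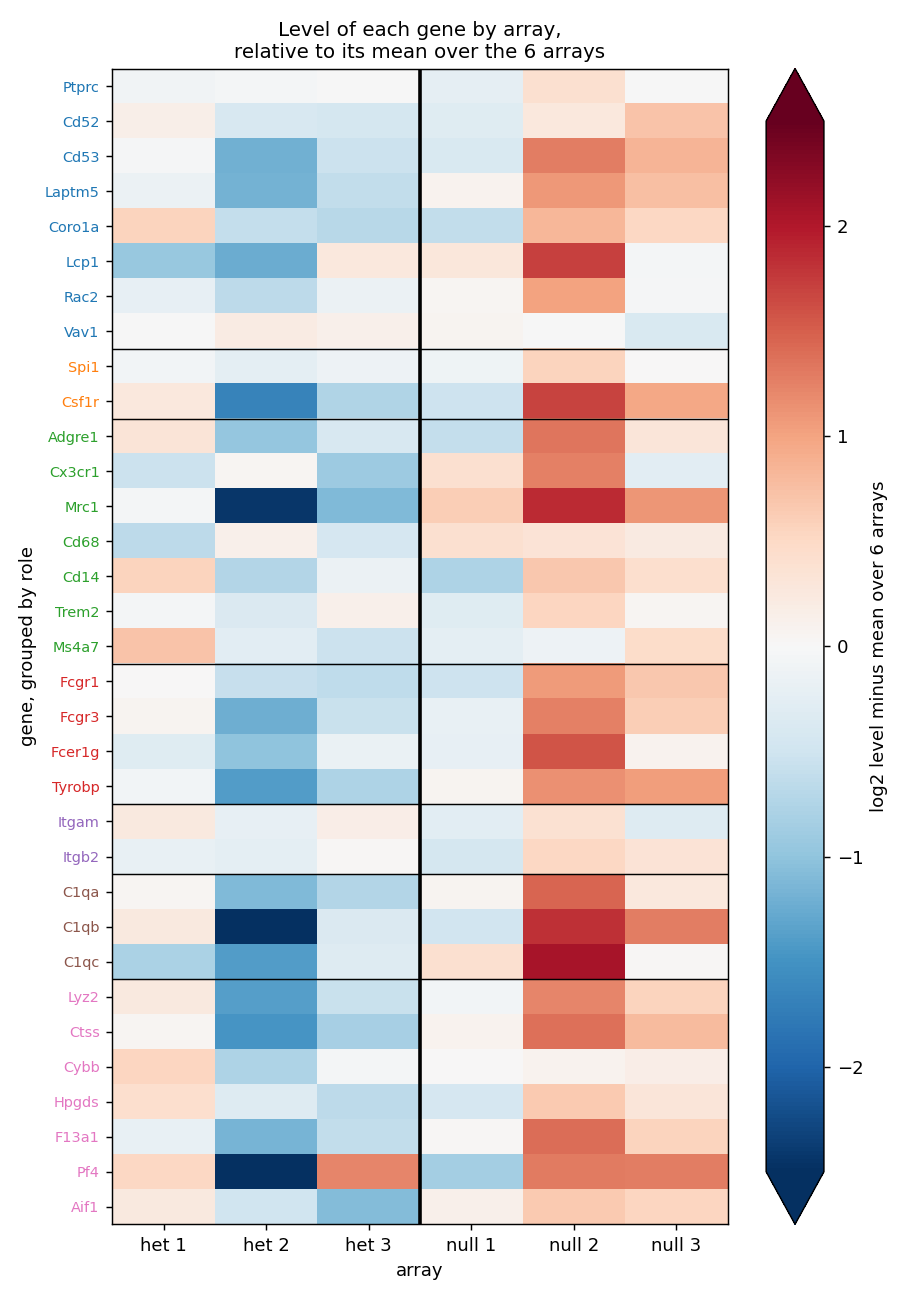
Level of each of the 33 genes on each array, as the log2 level minus the gene's own mean over the 6 arrays (het, heterozygote), with genes in rows grouped by role and the vertical line between genotypes; the colours are capped at 2.5 log2 units. Null 2 is the highest array for 28 of the 33 genes and heterozygote 2 the lowest for 20.

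The same arrays were high or low for most of the genes. Null 2 was the highest of the 6 arrays for 28 of 33 genes, against 18.4% of all genes, and heterozygote 2 the lowest for 20, against 17.6%. Null 2 lay above all 3 heterozygote arrays for 30 genes, null 3 for 22 and null 1 for 11, against 26.9%, 22.9% and 21.8% of all genes. Null 1 lay within the heterozygote range for 18 genes and below it for 4. The mean level over the 33 genes was 5.85, 4.90 and 5.45 in heterozygotes 1, 2 and 3, and 5.68, 6.81 and 6.24 in nulls 1, 2 and 3, so that heterozygote 1 stood above null 1. The groups therefore overlapped in this mean. Without null 2 the median change was 0.53, with 28 of 33 positive, and without heterozygote 2 it was 0.72, with 27 positive.

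The hybridization controls matched the arrays into 3 pairs that each held both genotypes, and the differences were therefore also taken within pairs. The pairing came from the data, not from the labels. In pair 1 null 3 was set against heterozygote 1, in pair 2 null 1 against heterozygote 2, and in pair 3 null 2 against heterozygote 3. The median difference over the 33 genes was 0.38 in pair 1, 0.71 in pair 2 and 1.69 in pair 3, with 25, 26 and 32 genes positive. Over all genes the medians were -0.060, -0.012 and 0.030, with 40.6%, 48.0% and 53.8% of genes positive. Pair 3 had the largest of the 3 differences in 27 genes. In all 3 pairs the null array was the higher for 23 of the 33 genes, against 19.1% of all genes. With the pair as a block, 8 genes passed as higher in null (limma, adjusted p under 0.05) and 0 as lower, where 2.67% of all genes passed as higher. These were Mrc1, Tyrobp, Laptm5, Lcp1, Cd53, C1qb, C1qc and Ctss. Pair 2 also held both arrays that stood apart from their genotype in sex-linked genes, namely heterozygote 2, with Eif2s3y at 3.92 against 7.90 to 8.95 on the other 5 arrays, and null 1, with Xist at 4.02 against 8.84 to 11.69. The part of either in the results was not tested.

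**Figure D2:**
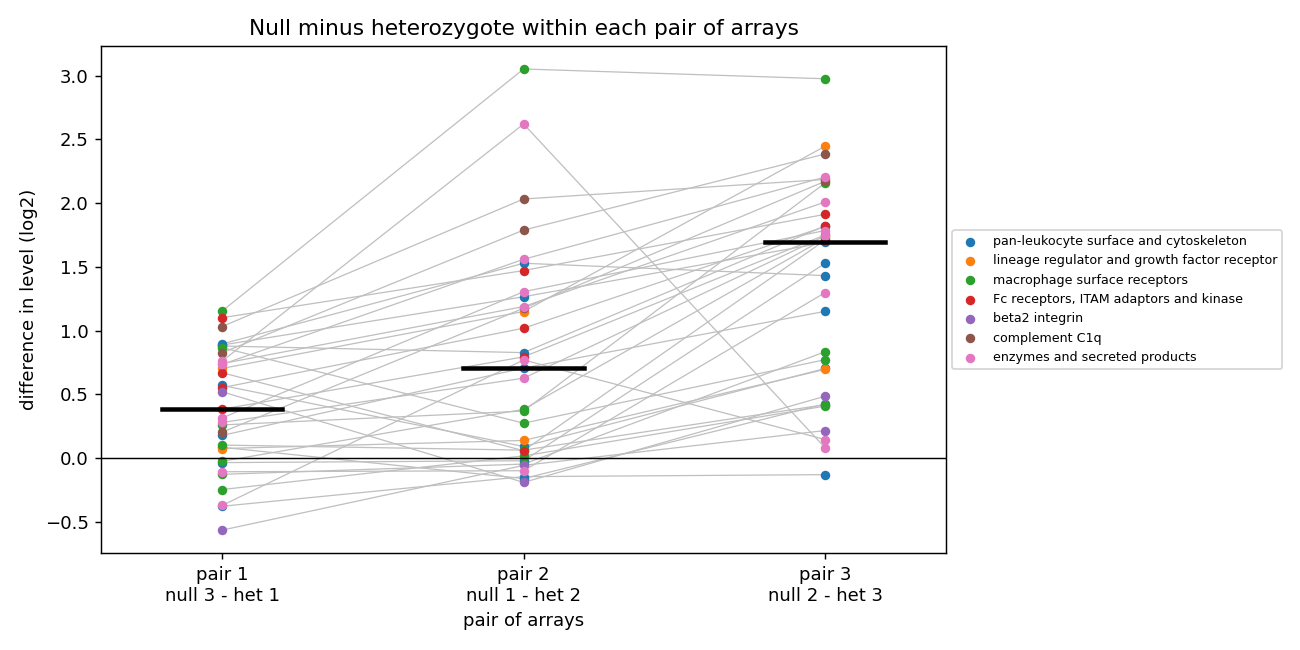
Null minus heterozygote difference in log2 level within each of the 3 array pairs, with 1 point per gene coloured by role, grey lines joining a gene's values and black bars at the medians (het, heterozygote). The medians are 0.38, 0.71 and 1.69, and pair 3 has 32 of 33 genes above 0.

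Csf1r, the receptor for Csf1 and Il34 that macrophages need to survive, stood at 8.51, 6.57 and 7.48 in heterozygotes 1, 2 and 3 and at 7.72, 9.92 and 9.21 in nulls 1, 2 and 3. Null 1 lay below heterozygote 1, so the groups overlapped on this probe set. The change was 1.43 ± 0.62 (SE), a 2.70-fold difference that did not pass (limma, adjusted p = 0.516), nor did it with the pair as a block (0.0856). All 3 probe sets of Csf1r had a positive change, from 1.25 to 1.43. The one with the lowest mean did not overlap, at 5.07, 4.85 and 5.63 in heterozygotes and 6.19, 7.50 and 5.76 in nulls. In the remaining one null 1 (6.33) lay just below heterozygote 1 (6.35). Spi1, which encodes PU.1, lay between 5.15 and 5.33 in heterozygotes and at 5.29, 5.97 and 5.41 in nulls 1, 2 and 3. Its change of 0.30 ± 0.21 rested mainly on null 2 and was 0.095 without that array.

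The largest difference was in Mrc1, a mannose receptor of tissue macrophages that takes up glycoproteins. Its levels were 6.32, 3.94 and 5.26 in heterozygotes 1, 2 and 3 and 6.99, 8.24 and 7.47 in nulls 1, 2 and 3. All null arrays lay above all heterozygote arrays, with the widest gap from heterozygote 2. The change was 2.39 ± 0.57 (SE), or 5.25-fold, and did not pass (limma, adjusted p = 0.117). It passed in limma under the pair block (adjusted p = 0.0346), under array weights (0.0307) and without heterozygote 1 (0.0256). Over all alternatives run the adjusted p went up to 0.727, and without null 2 it was 0.337. Cd68, a lysosomal membrane glycoprotein of phagocytes, ranged from 6.41 to 7.18 in heterozygotes and from 7.28 to 7.45 in nulls. These groups did not overlap either, heterozygote 2 being here the highest of its group. The change was 0.64 ± 0.21 (limma, adjusted p = 0.312).

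Other surface receptors differed less than Mrc1. Cx3cr1, the fractalkine receptor, stood at 5.31, 5.88 and 4.94 in heterozygotes and 6.25, 7.09 and 5.57 in nulls (arrays 1, 2 and 3), with a change of 0.93 ± 0.39. Adgre1, an adhesion receptor by which macrophages are often recognized, had a change of 0.69 ± 0.50 and was dim. A gene is called dim where its mean was below a log2 level of 4.81, the 33rd percentile over the whole table. The lipid-sensing receptor Trem2 (0.19 ± 0.24), the endotoxin co-receptor Cd14 (0.22 ± 0.44) and the tetraspan protein Ms4a7 (0.058 ± 0.34) had changes within their errors. Without null 2 the sign turned for Trem2 (-0.030) and Cd14 (-0.066), and that of Cd14 also turned without heterozygote 2 (-0.092). That of Ms4a7 turned without heterozygote 2 (-0.059), heterozygote 3 (-0.19) or null 3 (-0.16).

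**Figure D3:**
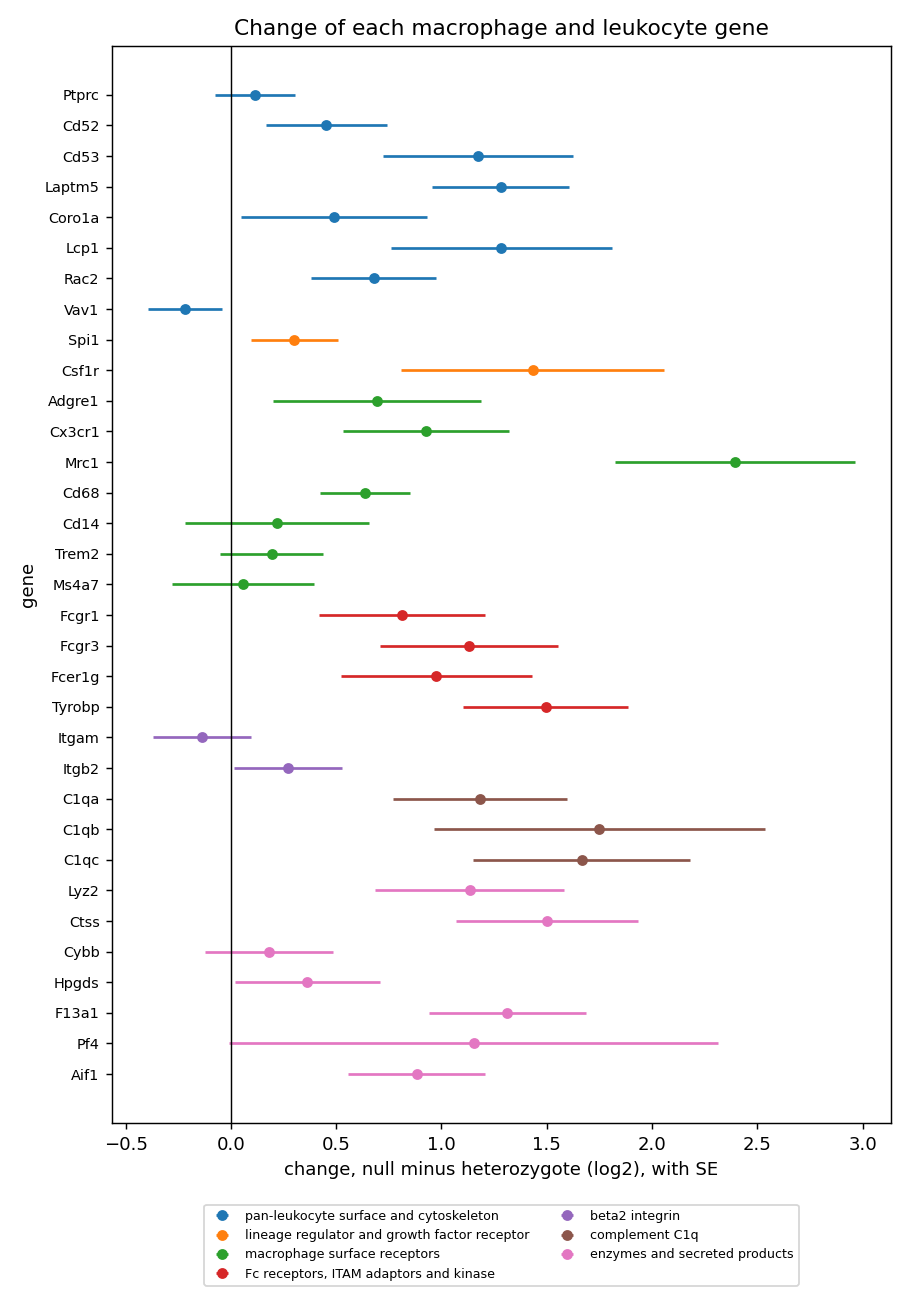
Change of each of the 33 genes, null minus heterozygote on the log2 scale, as a point with its standard error from limma (3 arrays per genotype), coloured by role. Changes run from -0.22 for Vav1 to 2.39 for Mrc1, with 31 of 33 above 0.

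Fc receptors and the ITAM-bearing adaptors Fcer1g and Tyrobp had positive changes throughout. Tyrobp, the adaptor also known as DAP12 that passes signals from Trem2 and other receptors to the kinase Syk, stood at 7.31, 5.96 and 6.60 in heterozygotes 1, 2 and 3 and at 7.44, 8.51 and 8.41 in nulls 1, 2 and 3. The groups did not overlap, but null 1 exceeded heterozygote 1 by little. The change was 1.49 ± 0.39 (limma, adjusted p = 0.154, and 0.0133 with the pair as a block). Fcer1g, the common gamma chain of Fc receptors, stood at 6.85, 6.15 and 6.98 in heterozygotes and at 6.94, 8.73 and 7.23 in nulls, with a change of 0.98 ± 0.45. It overlapped between genotypes, null 2 being the array that stood out. The low-affinity IgG receptor Fcgr3 had levels of 6.96, 5.67 and 6.33 in heterozygotes and 6.69, 8.15 and 7.51 in nulls, and a change of 1.13 ± 0.42. Its close relatives could contribute to its signal, and this was not tested. Fcgr1, the high-affinity IgG receptor, had a change of 0.81 ± 0.39. None of the 4 passed without the block.

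All 3 chains of complement C1q, the recognition molecule of the classical pathway and a product of tissue macrophages, were more than 1 log2 unit higher in null means. C1qb stood at 8.25, 5.49 and 7.63 in heterozygotes 1, 2 and 3 and at 7.52, 9.82 and 9.28 in nulls 1, 2 and 3. On this probe set null 1 lay below heterozygotes 1 and 3, and heterozygote 2 lay far below all others. The change was 1.75 ± 0.78 (limma, adjusted p = 0.541, and 0.0218 with the pair as a block), and it was 0.93 without heterozygote 2. The 3 probe sets of C1qb gave changes from 1.61 to 1.75. The one used here carries the suffix that Affymetrix gives to probe sets with probes shared by other sequences, as does that of Laptm5. Another C1qb probe set carries it too, and there null 1 again lay below heterozygotes 1 and 3. The C1qb probe set without this suffix had the change of 1.61. Its groups did not overlap, all null arrays lying above all heterozygote arrays. C1qc stood at 6.16, 5.55 and 6.63 in heterozygotes and 7.34, 9.01 and 6.98 in nulls, without overlap, with a change of 1.67 ± 0.52 that passed only in the second fit (limma, adjusted p = 0.250, with the block 0.0426). C1qa stood at 5.19, 4.03 and 4.41 against 5.20, 6.58 and 5.39, where null 1 and heterozygote 1 were all but level. Its change was 1.18 ± 0.41 and did not pass either way.

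Among enzymes and secreted products, the lysosomal protease Ctss stood at 6.17, 4.65 and 5.29 in heterozygotes 1, 2 and 3 and 6.21, 7.49 and 6.90 in nulls 1, 2 and 3. Null 1 was close to heterozygote 1 and the other null arrays lay clear of all heterozygotes. The difference was 2.83-fold (limma, adjusted p = 0.206, and 0.0481 with the block). F13a1, the coagulation factor XIII A chain of tissue macrophages and platelets, stood at 4.80, 3.84 and 4.38 against 5.02, 6.39 and 5.54, also without overlap. Its change of 1.31 ± 0.37 passed in neither fit (limma, adjusted p = 0.197 without and 0.0504 with the block). Lyz2, the lysozyme of myeloid cells, stood at 6.19, 4.56 and 5.38 against 5.87, 7.16 and 6.50, where null 1 lay below heterozygote 1, and its change was 1.13 ± 0.45.

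Pf4, a chemokine of megakaryocytes that early macrophages also express, differed from this pattern. It stood at 7.47, 3.50 and 8.18 in heterozygotes and at 6.12, 8.26 and 8.23 in nulls. Only heterozygote 2 stood far below the rest, and the change of 1.15 ± 1.16 became -0.29 without that array. Aif1, a calcium-binding protein also known as Iba1, had a change of 0.88 ± 0.33, the prostaglandin synthase Hpgds one of 0.36 ± 0.34 and the NADPH oxidase subunit Cybb one of 0.18 ± 0.30. Without heterozygote 2, Cybb had a change of -0.16.

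Genes shared by all leukocytes gave a mixed picture. Laptm5, a lysosomal membrane protein of blood cells, stood at 8.59, 7.56 and 8.12 in heterozygotes 1, 2 and 3 and at 8.82, 9.81 and 9.48 in nulls 1, 2 and 3, without overlap. Its change was 1.28 ± 0.33, or 2.43-fold (limma, adjusted p = 0.141, and 0.0204 with the block), and all 5 of its probe sets were positive, from 0.22 to 1.33. The actin-bundling protein Lcp1 stood at 6.08, 5.79 and 7.31 against 7.31, 8.74 and 6.98. Its change was 1.28 ± 0.52 (limma, adjusted p = 0.465, and 0.0150 with the block). Null 3 lay here below heterozygote 3, but above it in the other probe set of Lcp1 (7.45 against 6.27). Coro1a, an actin-binding protein, stood at 7.74, 6.60 and 6.49 against 6.58, 8.02 and 7.70, so that null 1 lay at the level of heterozygotes 2 and 3. Its change was 0.49 ± 0.44. With the block Cd53 lay just under the threshold (limma, adjusted p = 0.04995, and 0.417 without the block). Cd53 (1.18 ± 0.45), Rac2 (0.68 ± 0.29) and Cd52 (0.45 ± 0.29) also had positive changes, and the arrays of Rac2 did not overlap.

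Ptprc, which encodes the pan-leukocyte phosphatase CD45, was dim on all arrays, from 3.49 to 4.12. Its change was 0.11 ± 0.19, and it was -0.059 without null 2. The other dim genes were Vav1 (-0.22 ± 0.18), the integrin chains Itgam (-0.14 ± 0.23) and Itgb2 (0.27 ± 0.26), Adgre1, Ms4a7 and Cybb. The 2 genes with a negative change, Vav1 and Itgam, were both dim. In the 7 dim genes the median change was 0.11, and in the 26 others it was 1.13, with 26 of 26 positive. Of all genes that were not dim, 6303 of 13427 had a positive change, and their median was -0.017. RMA, which the submitters name, shrinks differences at low levels, and all 7 dim genes are open to this.

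Of the 14 genes with several probe sets, 10 had all of them on 1 side of 0. The exceptions were Cd53, Ms4a7, Trem2 and Vav1. In Vav1 the probe set used here had a change of -0.22 and the dimmer one 0.31. Of all 54 probe sets, 49 had a positive change.

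Other genes of the same cells, taken from lists by name, followed only in part. Of 47 further macrophage genes measured, 2 rose, 0 fell and the median change was 0.20. Over all genes 0.808% rose and 0.583% fell. Tmem119, known from microglia but also from mesenchymal cells, went from 6.99 ± 0.59 in heterozygotes to 9.03 ± 0.12 in nulls (SD, n = 3 each), a rise of 2.04 ± 0.28 (limma, adjusted p = 0.0167). Null 2, at 8.93, was here the lowest null array. P2ry6, a nucleotide receptor of phagocytes, stood at 5.87, 5.09 and 5.40 against 6.65, 7.52 and 7.17, and rose by 1.66 ± 0.28 (limma, adjusted p = 0.0317). Olfml3 (1.40 ± 0.31) and Lgals3 (-1.08 ± 0.30), next by p, did not pass. With the pair as a block 4 of the 47 passed as higher (2.67% of all genes did), namely Tmem119, P2ry6, Ly86 and Ccl6, and 1 as lower (1.90% of all genes), namely Lgals3 (limma, adjusted p = 0.0284). The Tmem119 call was lost without heterozygote 3 or any 1 null array (limma, adjusted p up to 0.0798). P2ry6 still passed without heterozygote 1 or null 1, but not with any other array left out (up to 0.129). Of 31 further signalling genes of leukocytes, 0 passed and the median change was 0.12. Vav3 (-0.83 ± 0.23) and Alox5ap (1.11 ± 0.32) came nearest by p. These were the 2 of the 31 with an unadjusted p under 0.05, which 1770 of all 18193 genes had. Alox5ap rose with the pair as a block (limma, adjusted p = 0.0328). In the 2 lists, 24 and 13 genes were dim.

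Among 10 ligands of macrophage receptors, Csf1 and Tgfb1 rose, where 0.808% of all genes rose. Csf1, the growth factor bound by Csf1r, stood at 6.85, 6.65 and 7.31 in heterozygotes 1, 2 and 3 and at 8.78, 8.79 and 8.08 in nulls 1, 2 and 3. It did not overlap between genotypes, and null 1 stood as high as null 2. The rise was 1.61 ± 0.26, or 3.05-fold (limma, adjusted p = 0.0265, and 0.0137 with the pair as a block). The call was lost in each fit that left out 1 array (adjusted p up to 0.105) other than that without null 3. Il34, the other ligand of Csf1r, was dim and had a change of 0.018 ± 0.14. Tgfb1 went from 4.81 ± 0.29 to 6.48 ± 0.52 (SD, n = 3 each), a rise of 1.68 ± 0.28 (limma, adjusted p = 0.0313). It passed without heterozygote 1 or null 3 but in no other fit that left out 1 array (up to 0.113). Cx3cl1 (0.12 ± 0.22), the ligand of Cx3cr1, and Ccl2 (0.085 ± 0.21), a monocyte attractant, did not pass, nor did Ccl12 (0.72 ± 0.31), Ccl7 (0.11 ± 0.15), Ccl8, Csf2 or Csf3.

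**Figure D4:**
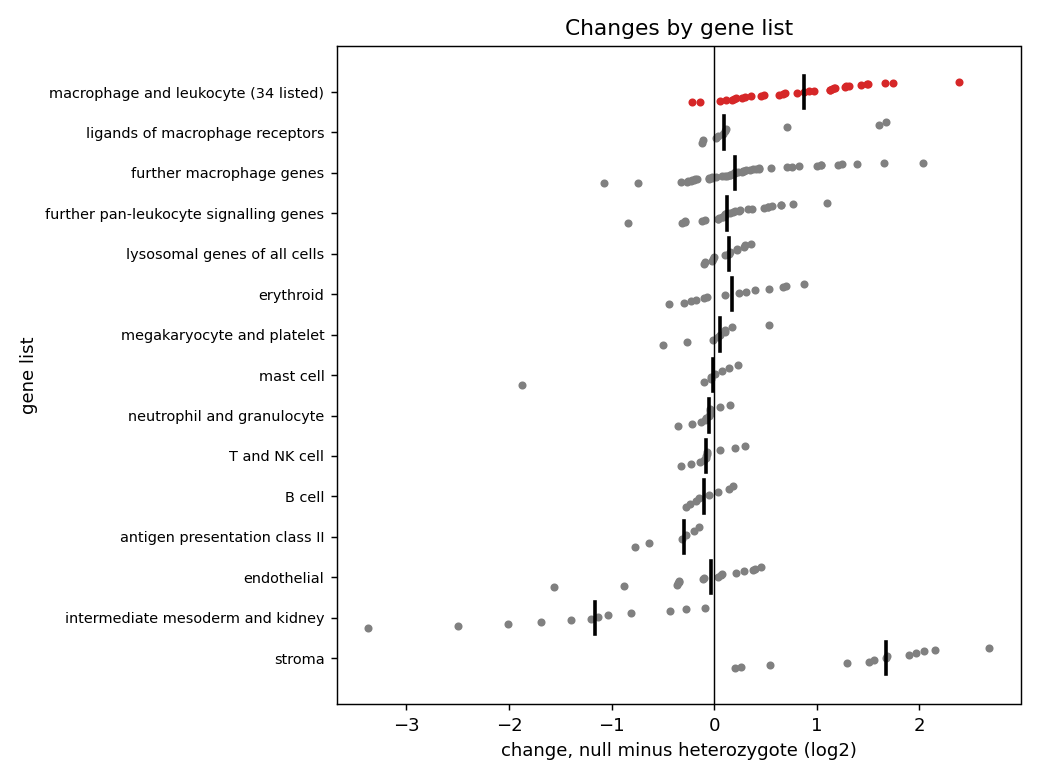
Change of each measured gene, null minus heterozygote on the log2 scale, with 1 row per gene list, points for genes in order of size within a row and black bars at the list medians. The 33 macrophage and leukocyte genes (red) have a median of 0.88, the class II list one of -0.29 and the lists of T and NK cells, B cells and granulocytes lie near 0.

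Lists for other blood cells had medians nearer 0. The median change was 0.18 over 14 erythroid genes, 0.059 over 9 megakaryocyte genes, -0.0070 over 8 mast cell genes, -0.046 over 11 granulocyte genes, -0.074 over 11 T and NK cell genes and -0.098 over 8 B cell genes. No gene of these 6 lists passed in limma, and Gp1bb and Hdc alone had an unadjusted p under 0.05. Over all genes 0.808% passed as higher and 0.583% as lower, so few calls would be looked for in lists of this size. An unadjusted p under 0.05 was found in 1770 of all 18193 genes. Of the 61 genes of these lists, 36 were dim. Among the 61, the histamine-forming enzyme Hdc, from the mast cell list, had the largest change at -1.87 ± 0.41 (limma, adjusted p = 0.0896). Hdc was not dim, but 6 of the 8 mast cell genes were, Cpa3, Fcer1a and Ms4a2 among them. The change of Hdc is therefore not a measure of mast cells. Hba-x, an embryonic globin, lay between 9.88 and 11.53 in heterozygotes and between 10.33 and 12.23 in nulls, so red cell RNA was present on all arrays and the groups overlapped. Of 6 genes for antigen presentation by class II molecules, which mature macrophages can carry, 0 had a positive change, against 46.4% of all genes. Their median was -0.29, with H2-Ab1 (-0.77 ± 0.25) and H2-Eb1 (-0.63 ± 0.26) the nearest to passing. With the pair as a block H2-Ab1 fell (limma, adjusted p = 0.0380). Over 13 lysosomal genes that all cells use, the median change was 0.15. The genotypes overlapped in all 13, as they did in 15710 of all 18193 genes. None of the 13 passed in limma, and 0 had an unadjusted p under 0.05, which 1770 of the 18193 had.

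Markers of the sorted tissue moved between genotypes on the same arrays. The 12 genes of intermediate mesoderm and kidney were present on all arrays. Their mean levels were 9.71 to 10.06 in heterozygotes and 8.44 to 8.82 in nulls. Of these 12, 6 fell and 0 rose, where 0.583% of all genes fell. The count that fell was 2 without heterozygote 2, heterozygote 3 or null 1. Over 13 stromal genes the mean level was 7.76 to 8.51 in heterozygotes and 9.49 to 9.82 in nulls, with 6 rising, 0 falling and a median change of 1.68, and without heterozygote 1 the count that rose was 10, as it was with the pair as a block. In the stromal list null 2 was the highest array for 1 of 13 genes, and in the macrophage and leukocyte list for 28 of 33. It was the highest for 26 of 47 further macrophage genes, 17 of 31 further signalling genes and 6 of 14 erythroid genes. Among lysosomal genes it was the highest for 1 of 13, and among intermediate mesoderm and kidney genes for 0 of 12. Heterozygote 2 was the lowest array for 11 of 13 stromal genes and 20 of 33 macrophage and leukocyte genes. This was not particular to these lists, as it was the lowest for 8 of 13 lysosomal and 8 of 14 erythroid genes. It was the lowest for 6 of 16 endothelial genes and for 0 of 12 intermediate mesoderm and kidney genes. Over all genes it was the lowest for 17.6%. Of 16 endothelial genes 8 had a positive change, against 46.4% of all genes. Ramp2, a receptor subunit, fell by 1.56 on the log2 scale (limma, adjusted p = 0.0391). With 1 array left out it passed in the fit without null 2 alone (up to 0.155 in the others). With the pair as a block Ramp2 and Erg fell. The part of these shifts in the macrophage and leukocyte values was not tested.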

How the data were processed

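EGFP-positive cells of 3 heterozygote and 3 null samples, so named in the labels, gave 1 array each. The RNA input was 10 ng, amplified to cDNA (NuGEN WT-Pico Ovation) and biotin-labelled, per the labels' protocols. The deposited values are log2 levels per probe set. The submitters' processing notes name affy, RMA and limma without versions, and their settings are not stated. RMA equalizes the distributions of arrays, which hides differences in total RNA, and compresses differences between dim probe sets.

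Of 45101 probe sets, 34945 had exactly 1 gene symbol and were no array control (64 controls), 932 had several and 9211 were not listed. Where a gene had several, the one with the highest 6-array mean stood for it, leaving 18193 genes. The test was limma's (version 3.58.1, R 4.3.3; lmFit, then eBayes, two-sided, no covariates, Benjamini-Hochberg over all genes, threshold 0.05). The error beside a change is limma's standard error (SE). Levels are per probe set and are not compared between genes. The array number limits the precision. Replicates of a genotype correlated at 0.976 to 0.991, so none were copies. Arrays were matched on 14 bacterial control probe sets without reference to genotype, the best of 15 matchings having a total distance of 1.94 and the second best 5.05. Up to 3 genes of each role group with the highest mean, the 6 genes with the smallest p and the 3 with the largest are given singly. Of the other lists, genes that passed and up to 2 more with the smallest p are named. Genes named beyond this, such as Cx3cr1, Il34 and Hba-x, were chosen after their values were seen. The members and lists were chosen with earlier results of these data known. The fit was tested on simulated data. Alternatives were other priors, a filter on dim genes, renewed normalization, centring, array weights, the mean over probe sets, each probe set as a unit, the pair as a block, omission of each array or pair, and a threshold of 0.10.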

Additional observations from a re-analysis of the deposited data

How the results depend on the processing

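The count of macrophage and leukocyte genes that passed was 0, and it was also 0 with the intensity-dependent or robust prior, without dim genes, with renewed quantile normalization, median centring, the mean over probe sets, each probe set as a unit, a threshold of 0.10 and the omission of any 1 pair. It was 8 with the pair as a block and 1 (Mrc1) with array weights. With 1 array left out it was between 0 and 1, the 1 being Mrc1 without heterozygote 1. The cause was not tested. The median change of 0.88 was positive under each alternative run. It ranged from 0.53 (without null 2) to 1.16 (without null 1) with 1 array left out, and was 1.18, 1.01 and 0.45 without pairs 1, 2 and 3 and 0.69 with the mean over probe sets.

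Of 554 values of single genes under the alternatives, 526 kept their sign and their side of the threshold, 10 passed it and 18 turned sign. The mean over probe sets turned Vav1 (0.045) and Ms4a7 (-0.028). Without pair 1 Itgam was 0.078, and without pair 2 Cybb was -0.11. Without pair 3 Ptprc was -0.039, Coro1a -0.030, Cd14 -0.089, Ms4a7 -0.12 and Hpgds -0.10. With 1 array left out, the genes that turned ranged from -0.059 to 0.25 for Ptprc, from -0.092 to 0.66 for Cd14, from -0.030 to 0.39 for Trem2, from -0.19 to 0.43 for Ms4a7, from -0.16 to 0.50 for Cybb and from -0.29 to 2.05 for Pf4. Over all genes 253 passed, with 830 under the pair block, 553 under array weights and 84 to 318 with 1 array left out. Without pair 2 or pair 3 it was 1 or 2 of all genes, so the counts of 0 there carry little. No replicate numbers are shared in the labels, and the pairs were drawn from the control probe sets. They also follow the order of the submitters' sample numbers, in which the first 3 samples pair in turn with the last 3. The labels do not say whether that order reflects batches.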
